A study of Mus musculus with 6 samples.

Results

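The 200 most abundant annotated pseudogenes of the mouse cerebrum were examined in libraries of wild-type (WT) and Sgo1-/+ mice. The members were selected on their level, as the autosomal genes of a pseudogene type with the highest mean estimated count over the 6 libraries, and LAMTOR3 was left out. They were taken from 4462 autosomal pseudogenes among 38087 genes. Levels are therefore a description. The mean covers both genotypes, so a member that was high in only some libraries could be chosen through them. The mean of WT libraries alone was under the limit of 59.95 estimated counts in 6 members, and that of Sgo1-/+ libraries alone in 5.

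RNA labelled as cerebrum was sequenced in 3 WT and 3 Sgo1-/+ mice with 1 library per mouse. The marker genes of the library labelled WT replicate 1 went against this tissue label. It had high markers of cerebellum and brain stem and a low sum of cortex and hippocampus markers, whose values are given beside Gm2574. Sgo1-/+ mice carry 1 intact copy of Shugoshin-1, which protects cohesin at the centromere. All mice were labelled C57BL6 and were 24 months old and untreated. By sex, the males were replicate 1 of WT and replicate 2 of Sgo1-/+ mice, and the rest were females. WT libraries were sequenced in run 258 and Sgo1-/+ libraries in run 259, so genotype and run cannot be told apart. The libraries held 11123917 to 12505561 estimated counts in total. The names of the library columns carry numbers and no genotype. That Br1 to Br3 are WT and Br4 to Br6 Sgo1-/+ libraries was taken as given. Replicates were matched by their number within the group.

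A pseudogene is a copy of a gene that is thought to have lost the function of its source. Most in the mouse genome are processed pseudogenes, or retrocopies, which arose when an mRNA was copied into DNA and inserted elsewhere, and therefore lack introns. Others are duplicated genes that decayed, or stretches of mitochondrial DNA that moved into the nuclear genome. Since a young copy can be almost identical to its source, a short read may match both, and the count of the copy then also depends on how such reads are shared out. Insertions of retrocopies can differ between strains of mice.

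Values below are estimated counts scaled by the TMM method of edgeR and called normalized counts. The mean count of the members ranged from 59.95 to 318201 before scaling, with a median of 180, and 22 members were above 1000. The 200 members held 98.6% of all counts of autosomal pseudogenes, while 1778 of the 4462 were at 0 in every library, where a count of 0 allows up to 3 counts. Just inside the limit were Gm5859 with a mean count of 59.9545 and Tigd5 with 59.9544. Vmn1r-ps128 with 59.6 and Gm11878 with 58.6 were just outside.

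The members held 5.60% ± 0.19 (SD, n = 3) of the counts of a WT library and 5.59% ± 0.36 (SD, n = 3) of a Sgo1-/+ library. A group of 6 members made up 88.1% of that. Gm13340, Gm13341 and Gm11410 ranked 1, 2 and 3 in abundance among all 38087 genes, and Gm13339, Gm11407 and Gm11408 ranked 8, 11 and 35. Gm13340, Gm13341 and Gm13339 lie side by side on chromosome 2 (mm10, chr2:22587291-22590533 from the first to the last) within an intron of Myo3a, a myosin gene. Gm11407, Gm11408 and Gm11410 lie side by side on chromosome 4 (chr4:80002331-80005131).

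All 6 were copies of mitochondrial DNA. Gm13340 was 97.6% identical to mt-Co1 and Gm13341 was 95.9% identical to mt-Co2, which encode subunits of cytochrome c oxidase. Gm11410 was 92.9% identical to mt-Cytb, the cytochrome b of complex III. Gm13339 (96.7%), Gm11407 (92.3%) and Gm11408 (93.6%) matched mt-Nd2, mt-Nd5 and mt-Nd6, subunits of complex I. The deposited table lists 0 genes of the mitochondrial genome, so the level of the mitochondrial transcripts themselves was not analysed here. Of the windows of 150 bases, the length of the reads, 0 in Gm13340 and 4.59% in Gm13341 occurred unchanged in a transcript of another gene. Windows were compared as exact matches only, so alignment of mitochondrial reads to these copies with mismatches was not tested.

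The following stretches of 120 bases show how far the most abundant members differ from mitochondrial genes. They are the stretches with the most differences, 6 of 37 over the coding sequence of mt-Co1 and 13 of 81 over that of mt-Cytb. Capitals mark the bases that differ. The member stretches are at chr2:22588352-22588471 on the minus strand and chr4:80004755-80004874 on the plus strand of mm10, and the mitochondrial ones at chrM:6504-6623 and chrM:14911-15030, all from GENCODE M21.
mt-Co1: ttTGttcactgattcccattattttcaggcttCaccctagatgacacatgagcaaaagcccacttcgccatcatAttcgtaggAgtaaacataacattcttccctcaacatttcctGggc
Gm13340: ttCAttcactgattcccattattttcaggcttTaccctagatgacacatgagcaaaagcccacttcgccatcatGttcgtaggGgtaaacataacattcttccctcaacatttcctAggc
mt-Cytb: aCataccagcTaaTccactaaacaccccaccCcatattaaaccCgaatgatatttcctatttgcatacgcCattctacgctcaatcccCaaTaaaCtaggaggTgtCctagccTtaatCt
Gm11410: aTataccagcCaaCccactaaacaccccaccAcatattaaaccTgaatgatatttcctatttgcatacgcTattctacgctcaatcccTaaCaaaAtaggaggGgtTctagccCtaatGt

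Gm13340 had normalized counts of 287789, 331111 and 325438 in WT and 340644, 306411 and 316722 in Sgo1-/+ mice. The groups overlapped, and the log2 fold change was 0.03 (SE 0.19, edgeR quasi-likelihood test, adjusted p = 1.00). Gm13341 was between 92311 and 116334, and Gm11410 between 86376 and 115428. In each of these 3 members WT replicate 1 was the lowest and Sgo1-/+ replicate 1 the highest. Per kilobase of length in the table, Gm13340 reached a mean of 205838 normalized counts, Gm13341 154768, Gm11410 89471 and Gm11407 24621. The 6 members thus differed in level per length, and all 6 groups of values overlapped between genotypes, with log2 fold changes from 0.03 to 0.10.

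A further 4 members matched the mitochondrial genome over at least 50% of their length. Gm20462, which matched mt-Nd1 at 79.4% identity, lies on chromosome 17 and was between 1596 and 2265. Gm11512 matched mt-Co1 at 90.7% identity and was far lower, between 72.9 and 109. The older copies Gm13059 (mt-Nd4, 71.2% identity) and Gm11834 (mt-Nd1, 76.6%) were between 188 and 244 and between 51.4 and 82.1.

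**Figure D1:**
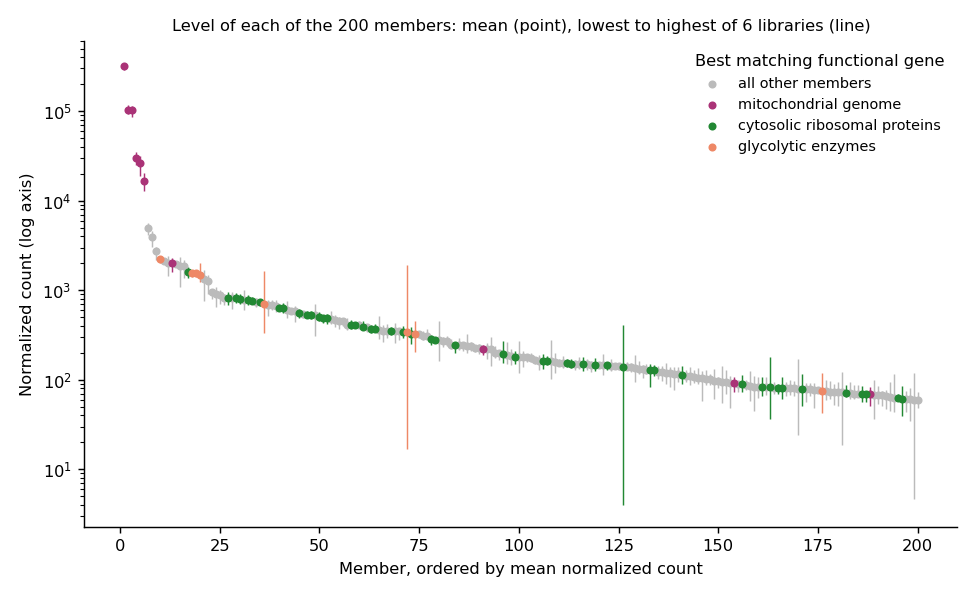
Normalized count (log axis) of each of the 200 members in order of their mean over 6 libraries. Points are means and lines run from the lowest to the highest library, and colours mark the functional gene matched. The 6 leftmost members, all copies of mitochondrial genes, stand above all others, and only a few members have long lines.

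The other 194 members held 0.669% ± 0.028 (SD, n = 3) of the counts in WT and 0.660% ± 0.025 in Sgo1-/+ libraries. GENCODE M21 holds 190 of the 200 members. Its types were a pseudogene for 177 of them, 153 of which were processed, and protein coding for 12, among them Slc25a22, a mitochondrial glutamate carrier, Kctd12, a subunit of GABA-B receptors, and Cebpd, a transcription factor. For these 12 the pseudogene type of the deposited table and the newer annotation differ. A functional gene was matched on the same strand over at least 50% of the length by 157 members of a pseudogene type, with a median identity of 99.5%. In 105 of the 157 the identity was at least 99%.

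Ribosomal proteins were the source of 50 members, which matched 39 genes, 35 members for the large subunit and 15 for the small subunit. Genes of glycolysis were matched by 8 members, 5 of them copies of Gapdh. The proteasome and ubiquitin were matched by 7 members, chaperones and prolyl isomerases by 7, translation factors by 6, and nuclear genes of oxidative phosphorylation, the cytoskeleton and RNA-binding proteins by 5 each. A further 48 matched other genes, such as Gm15487, a copy of Atp6v0c, a subunit of the proton pump of lysosomes and synaptic vesicles.

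Copies of 2 subunits of gamma-secretase, the protease that releases amyloid-β, were among the members and are named for that role. Gm12396 was identical to Psenen over its whole length and had normalized counts of 163, 147 and 124 in WT and 162, 150 and 134 in Sgo1-/+ mice. Gm15429, identical to Aph1a, had 241, 249 and 211 in WT and 256, 240 and 261 in Sgo1-/+ mice. In both the groups overlapped, and the log2 fold changes were 0.04 (SE 0.17) and 0.11 (SE 0.13), with adjusted p = 1.00 in edgeR's quasi-likelihood test. Psenen itself was between 119 and 162 and Aph1a between 121 and 249.

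Reads of 150 bases could not always be told apart between a member and other genes. At least 1 window of 150 bases was shared exactly with a transcript of another gene in 157 of the 190 members, and at least 50% of the windows in 96. Values that are not whole numbers were found in 199 of 200 members, and in 99.9% of the 12561 genes of the table that were at least as abundant as the last member. In all 6 libraries they were found in 25 of the 33 members that share no window and in 72 of the 96 that share at least 50%, so such values did not set apart the members or those that share windows. Exons of other genes overlapped 36 members, and since the library kit does not mark the strand, their reads cannot be told apart from those genes. Values of the members are therefore uncertain as measures of transcription at the copy itself.

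Some retrocopies had more counts per kilobase than the functional gene. Of 138 retrocopies with their functional gene in the table, 44 were above it, with a median ratio of copy to functional gene of 0.406. Among the 34 copies that were identical over the aligned part, 25 were above their functional gene and the median ratio was 1.47. Of the 69 copies with an identity from 99% to under 100%, 13 were above, with a median ratio of 0.297, and of the 32 copies from 95% to under 99%, 5 were above, with a median ratio of 0.116. Of the 3 copies under 95%, 1 was above, with a median ratio of 0.313. The length of a functional gene was that of its best matching transcript. Copies were members for their high counts, which favours high ratios. These ratios share the libraries and depend on how the reads were divided, which was not tested.

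Rps6-ps4, an identical copy of Rps6 within an intron of 2600014E21Rik, was among them. It had normalized counts of 1818, 1592 and 1370 in WT and 1579, 1555 and 1585 in Sgo1-/+ mice. Rps6, a protein of the small ribosomal subunit, had 46.0, 51.7 and 52.2 in WT and 62.1, 83.1 and 50.5 in Sgo1-/+ mice. Per kilobase the copy stood 29.4 times above the gene. Gm15487 stood 9.26 times above Atp6v0c. Gm10231 stood 63.1 times above Atp5g2, a subunit of ATP synthase. Atp5g2 had only 4.94 normalized counts per kilobase over a transcript of 441 bases. Its mean count was thus under the limit below which values were not ordered here, so the size of this ratio is uncertain.

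**Figure D2:**
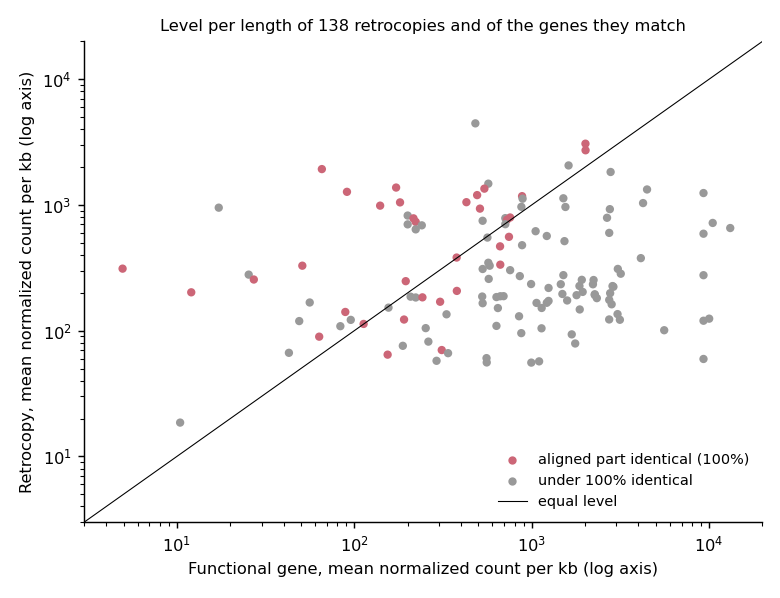
Mean normalized count per kilobase of 138 retrocopies (vertical, log axis) against the functional gene each matches (horizontal, log axis). The line marks equal levels, and 25 of the 34 copies that are identical over the aligned part lie above it.

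Most members were steady between libraries. The highest library was less than 2-fold above the lowest in 171 of 200 members, and the median of that ratio was 1.40. This was not particular to them. The largest gap between neighbouring libraries had a median of 1.16-fold in members and 1.19-fold in the 12561 genes at least as abundant. All-or-none values were sought as a gap of at least 8-fold between neighbouring libraries in order of level, with values under 3 counts set to 3. Gm13841 and Gm2574 met this, 2 of 200 members, beside 0.701% of the same 12561 genes. WT replicate 1 alone was apart in 74 of those 88 genes, and other splits were found in 1 of 200 members and 0.111% of the genes. Both members were under the rank limit in every library outside their high ones, so the choice by mean count rested on the values that make the gap, and nothing is read from the share. A smaller gap of at least 2-fold, chosen after values were seen, was met by 6 members (3%) and by 7.01% of the same genes, of which 710 of 880 had WT replicate 1 alone apart. Leaving out that pattern, 5 members (2.5%) and 1.35% of the genes had such a gap, so which share is higher turned with this 1 library.

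Gm13841, a copy of the ribosomal protein gene Rpl29 on chromosome 5 (chr5:115801559-115802194), was present at 413 and 398 normalized counts in Sgo1-/+ replicates 1 and 3. It was at 4.03, 6.86 and 6.59 in WT and 5.40 in Sgo1-/+ replicate 2. The gap between 6.86 and 398 was 58.1-fold. Within Sgo1-/+ mice the split followed sex, since replicates 1 and 3 were females and replicate 2 a male, but both WT females were low. The genotypes overlapped, and with edgeR's filter on low counts off, which otherwise removes Gm13841, the log2 fold change was 5.57 (SE 1.26, adjusted p = 0.95). With Sgo1-/+ replicate 2 left out, only the high libraries of that genotype remain, so Gm13841 passes the filter through them and its call (edgeR adjusted p = 0.00657) follows from the omission.

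Gm8210, a copy of Rpl29 on chromosome 1 (chr1:43189156-43189638) in an intron of Fhl2, had the same split at a smaller size. It had 182 and 156 in Sgo1-/+ replicates 1 and 3, and 36.5, 42.3 and 42.9 in WT and 39.8 in Sgo1-/+ replicate 2. The annotated sequences of Gm8210 and Gm13841 are identical over their 483 bases, so reads that lie within them cannot be assigned to 1 of them by sequence. Reads or mates that reach beyond them were not examined. Gm13841 is longer in the deposited table, at 636 bases.

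Both copies differ from the coding sequence of Rpl29 by C72A, C300T and T423C, where the base of Rpl29 stands first and positions are counted from 1 at the first coding base. The stretch of 120 bases below holds C300T, in capitals, and shows how little separates the copies from the gene. It spans coding bases 234 to 353, and in the members chr5:115801807-115801926 on the minus strand and chr1:43189389-43189508 on the plus strand.
Rpl29: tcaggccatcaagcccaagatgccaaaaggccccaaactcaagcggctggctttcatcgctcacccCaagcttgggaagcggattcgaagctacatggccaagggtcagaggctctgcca
Gm13841: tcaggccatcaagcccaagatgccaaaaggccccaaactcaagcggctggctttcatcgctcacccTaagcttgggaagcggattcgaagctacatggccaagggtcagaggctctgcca
Gm8210: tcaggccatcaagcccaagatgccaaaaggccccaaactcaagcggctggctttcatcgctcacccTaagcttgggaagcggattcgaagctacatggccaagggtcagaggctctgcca

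Rpl29 moved opposite to its copies. It had 899, 1147 and 1032 normalized counts in WT and 1080 in Sgo1-/+ replicate 2, but 601 and 542 in Sgo1-/+ replicates 1 and 3. The sum of Rpl29 and both copies was 939, 1196 and 1082 in WT and 1196, 1125 and 1096 in Sgo1-/+ mice. The highest sum was thus 1.27 times the lowest, where Rpl29 alone spanned 2.12-fold and the copies together 14.7-fold. By genotype the groups overlapped for Rpl29 alone, with a log2 fold change of -0.47 (SE 0.27, edgeR adjusted p = 1.00), and for the sum, which was 1073 ± 129 in WT mice and 1139 ± 51.5 in Sgo1-/+ mice (mean ± SD, n = 3 each).

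Tma7-ps on chromosome 1 (chr1:171711077-171711500), a copy of the translation machinery gene Tma7, also separated Sgo1-/+ replicates 1 and 3. It had 170 and 158 there, against 28.5, 24.0 and 53.3 in WT and 44.2 in Sgo1-/+ replicate 2. Its log2 fold change was 1.81 (SE 0.56, edgeR adjusted p = 1.00). Tma7 had 611, 562 and 677 in WT and 626, 699 and 594 in Sgo1-/+ mice. In the libraries where the copy was high it thus lay within the range of the others, 562 to 699. Whether counts were exchanged with the copy was not tested. The sum of both was 639, 585 and 730 in WT and 796, 744 and 752 in Sgo1-/+ mice, so the groups of sums did not overlap (exact permutation p = 0.1, the least possible with 3 against 3). It ranged 1.36-fold, against 1.25-fold for Tma7 alone. Tma7-ps shared 0 of its 150-base windows with other transcripts, and it differs from the coding sequence of Tma7 by A123G and C141T, as in this stretch of coding bases 48 to 167 (member at chr1:171711135-171711254, plus strand, differing bases in capitals).
Tma7: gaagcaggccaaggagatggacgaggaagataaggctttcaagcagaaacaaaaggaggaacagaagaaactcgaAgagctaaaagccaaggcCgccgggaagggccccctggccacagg
Tma7-ps: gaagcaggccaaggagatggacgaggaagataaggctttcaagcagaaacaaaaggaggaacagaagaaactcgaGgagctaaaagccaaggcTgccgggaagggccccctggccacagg

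Gm5859 on chromosome 4 (chr4:42236859-42239182) showed the opposite direction in the same libraries. It was at 4.64 and 8.87 in Sgo1-/+ replicates 1 and 3, against 80.2, 41.9 and 120 in WT and 106 in Sgo1-/+ replicate 2, a gap of 4.72-fold. RP23-388P16.2, which lies beside it on chromosome 4, was also lowest in these libraries, at 18.6 and 32.2 against 51.1 to 123. Both are unprocessed pseudogenes that share 67.9% and 78.0% of their 150-base windows with other genes, most with Gm17167, an overlapping neighbour of RP23-388P16.2.

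Neighbours that are no members were named after their values were seen. Gm17167 was at 64.6 and 88.2 in Sgo1-/+ replicates 1 and 3 and from 212 to 493 in the other libraries. Gm13301 was at 3.97 and 1.02 against 24.8 to 83.1, and Gm17081 at 0.66 and 2.05, against 13.3 to 24.3. Values under 3 counts were not ordered. Gm13306, between 47.0 and 105, and Gm13305, between 11.9 and 16.9, lie close by and did not follow this split. Nor did Gm3892, at 25.4 and 31.5 in Sgo1-/+ replicates 1 and 3 and from 30.2 to 143 in the other libraries. Of the 12561 genes at least as abundant as the members, 5 (0.0398%) had a gap of at least 2-fold with Sgo1-/+ replicates 1 and 3 apart, and 4 of these were the members Gm13841, Gm8210, Tma7-ps and Gm5859, on chromosomes 5, 1, 1 and 4. The fifth was Gm17167. Gm13841, Gm8210 and Tma7-ps were each under the rank limit in 4 libraries and were members through the high ones, so nothing is read from this share. The annotated sequences of Gm13841 and Gm8210 are identical, and Gm5859 shares windows with Gm17167, so these may not be 5 separate cases. No genotype of the strain background was analysed here, so whether the split follows inherited variants was not tested. Of 11 marker lists, that of microglia was highest in the same libraries, with a summed CPM of 193 and 199 in Sgo1-/+ replicates 1 and 3 against 152 to 172 in the others, and all 5 of its markers had more than 3 counts in at least 1 library. This list was picked from the 11 by that order, and only its sum was compared, so nothing is read from it. Its part in these values was not tested.

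Copies of Gapdh, the glycolytic enzyme often used as a reference gene, gave the other gaps. Gm2574 on chromosome 3 was at 1907 in WT replicate 1 and at 25.5 and 17.1 in the other WT libraries. In Sgo1-/+ mice it was at 27.8, 34.5 and 29.5, a gap of 55.2-fold that set WT replicate 1 alone apart. Its log2 fold change of -4.40 (SE 1.77, edgeR adjusted p = 1.00) rested on that library and was 0.51 without it. All its 150-base windows occurred in other genes, 51 in number.

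WT replicate 1 stood apart in other respects. Of the genes at least as abundant as the members, 5.65% had a gap of at least 2-fold with this library alone on 1 side, against 1 of 200 members. Summed CPM of cerebellar markers was 2830 in it and at 260 to 355 in the others, with all 10 markers highest there, and all 7 markers of the medulla and brain stem summed to 375, against 1.07 to 4.56. Markers of cortex and hippocampus summed to 681, against 3604 to 4301, although 1 of these 8 markers was highest in WT replicate 1. In each of these lists every marker had more than 3 counts in at least 1 library. Their part in the level of Gm2574 was not tested, and in bulk tissue fewer cells of a type and less RNA per cell cannot be told apart.

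ENSMUSG00000096617, a Gapdh copy on chromosome 5 (chr5:95861708-95862894), was at 345, 338 and 336 in WT and at 1646, 1142 and 398 in Sgo1-/+ mice. Every Sgo1-/+ library was above every WT library, with a gap of 2.87-fold between replicates 3 and 2 of Sgo1-/+, so the group was itself split. The log2 fold change was 1.64 (SE 0.46, edgeR unadjusted p = 0.0091, adjusted p = 1.00). By an exact permutation test (2-sided) p was 0.1, and 3 against 3 libraries allow no smaller p.

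The 2 copies differ from the coding sequence of Gapdh at few positions, Gm2574 by T63C, C153T and C591T and ENSMUSG00000096617 by T385A. The stretches below hold T63C and C153T (coding bases 49 to 168, member at chr3:142962659-142962778, plus strand) and T385A (coding bases 326 to 445, member at chr5:95862039-95862158, plus strand), with differing bases in capitals.
Gapdh: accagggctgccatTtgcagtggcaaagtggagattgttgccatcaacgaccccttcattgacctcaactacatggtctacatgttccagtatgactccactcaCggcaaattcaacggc
Gm2574: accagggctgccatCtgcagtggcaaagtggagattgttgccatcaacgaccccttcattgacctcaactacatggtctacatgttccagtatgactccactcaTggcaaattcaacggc
Gapdh: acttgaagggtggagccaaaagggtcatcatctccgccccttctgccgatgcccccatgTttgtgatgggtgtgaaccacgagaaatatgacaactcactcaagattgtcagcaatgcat
ENSMUSG00000096617: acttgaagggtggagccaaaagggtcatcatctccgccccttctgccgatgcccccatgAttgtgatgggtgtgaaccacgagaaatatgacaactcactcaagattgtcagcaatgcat

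Gapdh itself was at 11010, 12870 and 12725 in WT and at 10517, 11841 and 12043 in Sgo1-/+ mice. It was lowest in Sgo1-/+ replicate 1 and WT replicate 1, the libraries in which ENSMUSG00000096617 or Gm2574 was highest. The sum of Gapdh and its 5 copies among the members was 14896, 15195 and 14677 in WT and 14569, 14878 and 14222 in Sgo1-/+ mice. Its highest value was 1.07 times the lowest, against 1.22 for Gapdh alone and 2.08 for the copies.

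For Atp6v0c the functional gene rather than the copy was split. In Sgo1-/+ replicate 3 Atp6v0c reached 1415, and the other libraries had 372 to 439, while Gm15487 had 4292 in that library and 4130 to 5676 elsewhere. The sum was 4510, 5388 and 6050 in WT and 5772, 5855 and 5706 in Sgo1-/+ mice. Over all 126 functional genes with a copy among the members, the sum spanned less than the gene alone in 85. It spanned less than both the gene and its copies in 47. The median ratio of the highest to the lowest library was 1.29 for the sum and 1.34 for the gene. That ratio of a sum cannot exceed the larger ratio of its parts. These counts thus follow in part from adding, the share due to adding alone was not computed, and nothing is read from them. A gap of at least 2-fold was left in 1 of the 126 sums, that of the gene matched by Gm5859 and RP23-388P16.2.

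**Figure D3:**
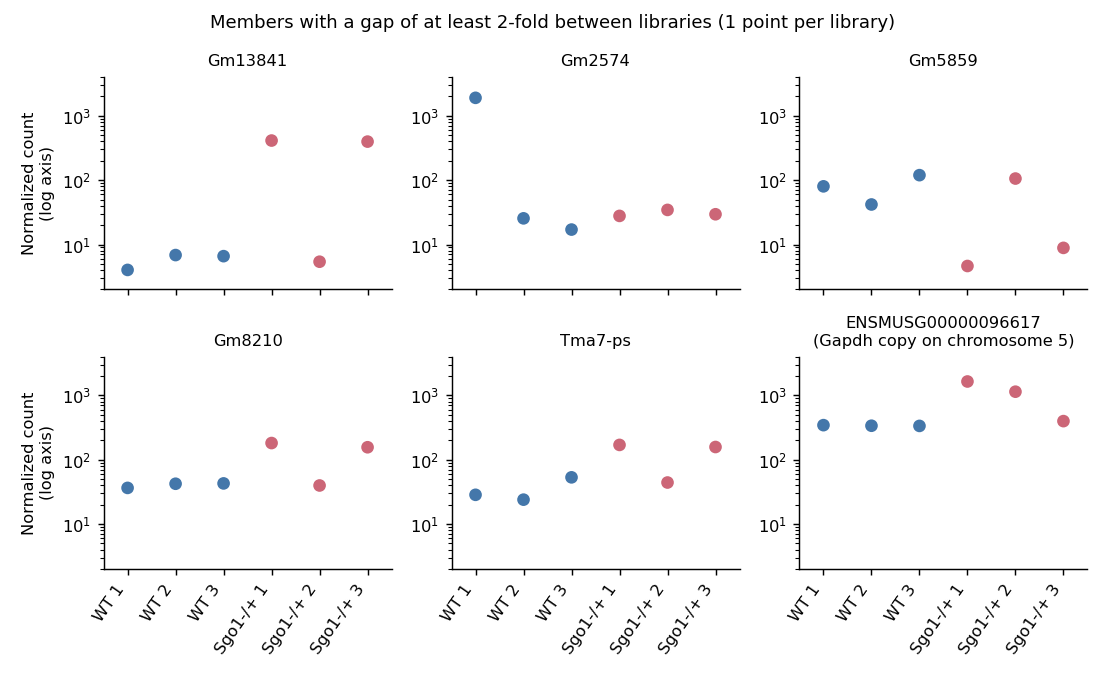
Normalized count (log axis) by library of the 6 members with a gap of at least 2-fold. Blue points are WT and red points Sgo1-/+ libraries, and Sgo1-/+ replicates 1 and 3 stand apart in Gm13841, Gm5859, Gm8210 and Tma7-ps, WT replicate 1 in Gm2574, and Sgo1-/+ replicates 1 and 2 in ENSMUSG00000096617.

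**Figure D4:**
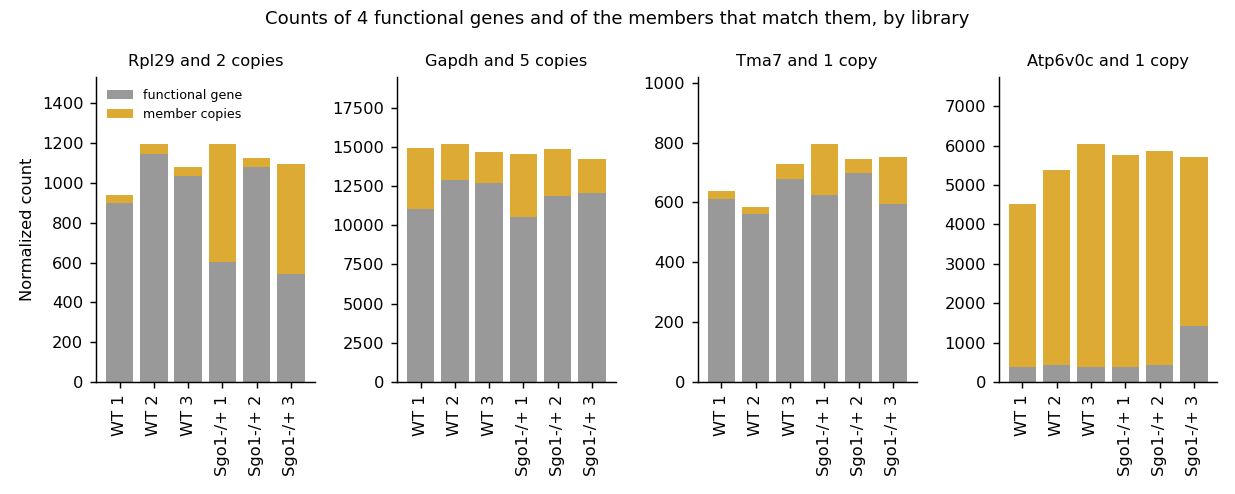
Stacked normalized counts by library of 4 functional genes (grey) and the members that match them (yellow). For Rpl29 and Gapdh the height of the whole bar varies less, 1.27-fold and 1.07-fold, than either part.

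Sgo1-/+ mice were then compared with WT mice over the members. Counts were tested in edgeR with the quasi-likelihood method, and p-values were adjusted by Benjamini and Hochberg over 16337 genes, of which 199 were members. No member had an adjusted p-value under 0.05, as was the case for 0% of all genes tested, and the DESeq2 Wald test called 3 genes and 0 members. At an unadjusted p under 0.05, edgeR gave 3 members higher in Sgo1-/+ mice (1.51%), beside 0.808% of all genes, and 4 lower (2.01%), beside 1.23%. DESeq2 gave 7 members at an unadjusted p under 0.05 (3.5%), beside 1.7% of its genes. Of the 7 members in edgeR, 3 had a group mean under the rank limit, namely Tma7-ps and Gm8210 in WT and Gm2574 in Sgo1-/+ mice. They were members only through their high libraries, so nothing is read from these shares.

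The groups did not overlap in 10 members that were higher in Sgo1-/+ mice, 5.03%, beside 3.28% of the genes tested, and in 13 that were lower, 6.53%, beside 3.57%. The median log2 fold change of the 199 members was 0.01, and that of all genes tested was 0.00. Without WT replicate 3 the groups did not overlap in 27.5% of the 200 members and 24% of the genes tested.

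The 3 higher members were ENSMUSG00000096617, Tma7-ps and Gm8210, described above, each with a split within Sgo1-/+ mice. Fam181b, annotated as protein coding in GENCODE M21, was lower, with 275, 164 and 176 in WT and 102, 134 and 115 in Sgo1-/+ mice. Its groups did not overlap, and the log2 fold change was -0.81 (SE 0.24, edgeR unadjusted p = 0.012, adjusted p = 1.00). An exon of Gm9934 on the other strand overlaps it. It was highest in WT replicate 1, the library with high cerebellar markers. Their part in this value was not tested.

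AY036118 on chromosome 17 was also lower, with 301, 227 and 252 in WT and 218, 143 and 167 in Sgo1-/+ mice (log2 fold change -0.56, SE 0.20). It overlaps exons of CT010467.1 on the same strand and of Gm42418 on the other strand, from which its reads cannot be told apart. Rps19-ps6, a copy of the ribosomal protein gene Rps19, had 106, 115 and 71.4 in WT and 71.2, 62.4 and 50.7 in Sgo1-/+ mice (log2 fold change -0.65, SE 0.26), and the nearest values of the groups were 71.4 and 71.2. Rps19 itself was at 1478, 1623 and 1324 in WT and 1626, 1500 and 1296 in Sgo1-/+ mice. The fourth, Gm2574, rested on WT replicate 1.

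The next smallest p-values were those of Kctd12, Ccdc166 and 6820431F20Rik, with log2 fold changes of -0.27 (SE 0.13), -0.42 (SE 0.21) and -0.24 (SE 0.12). Kctd12, which Gm26778 overlaps on the other strand, was at 486, 507 and 480 in WT and at 469, 392 and 366 in Sgo1-/+ mice. All 3 were lower in every Sgo1-/+ library than in every WT library, and none passed an unadjusted p of 0.05 in edgeR's test.

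By source, the 49 tested copies of ribosomal proteins had a median log2 fold change of 0.02, with 1 higher and 1 lower at an unadjusted p under 0.05. Summed over all 50, with Gm13841, which the filter removes, normalized counts were 17034 ± 1135 in WT mice and 17433 ± 1348 in Sgo1-/+ mice (mean ± SD, n = 3 each). Gm13841 alone had means of 5.83 in WT and 272 in Sgo1-/+ mice, so much of that difference came from it. The 10 copies of mitochondrial genes had a median of 0.06 and none at that threshold, and the 8 of glycolytic genes a median of 0.07, with ENSMUSG00000096617 higher and Gm2574 lower. Copies of chaperones (7 members), of ubiquitin and proteasome genes (7) and of translation factors (6) had median log2 fold changes of -0.04, -0.02 and 0.08 and no member at an unadjusted p under 0.05. Those of RNA-binding, cytoskeleton and nuclear oxidative phosphorylation genes (5 each) had 0.08, 0.01 and 0.04, also with none. Copies of signalling and GTPase genes (4) had the largest median, 0.24, with none at that threshold. In 2 of these 4 the groups did not overlap and Sgo1-/+ mice were higher, too few for a share to be read. Their sums overlapped, at 1566 ± 402 in WT and 1843 ± 173 in Sgo1-/+ mice (mean ± SD, n = 3 each). Among the highest members outside the mitochondrial copies, Gm12715, a copy of the actin gene Actg1, had a log2 fold change of 0.23 (SE 0.17). Gm15487, Gm15459, a copy of the chaperone gene Hspa8, and Pgam1-ps2, a copy of the glycolytic gene Pgam1, had 0.03, 0.13 and 0.06.

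**Figure D5:**
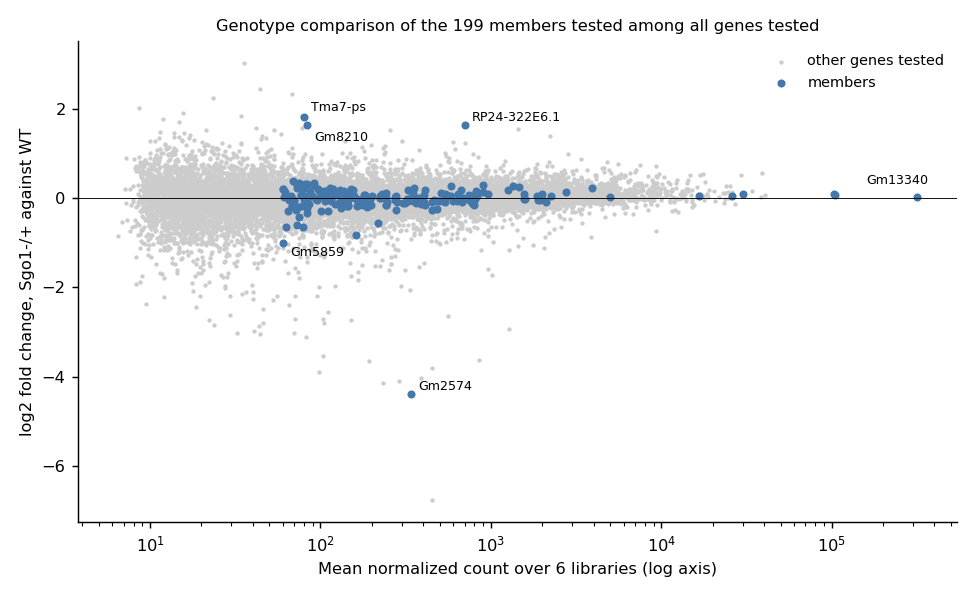
Log2 fold change of Sgo1-/+ against WT (vertical) against the mean normalized count over 6 libraries (log axis) for the 199 members tested (blue) among all genes tested (grey). The highest member, Gm13340, lies at 0.03, and Gm2574, which rests on WT replicate 1, at -4.40.

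Sgo1, the gene reduced in these mice, is listed as Sgol1 and had estimated counts of 0, 7 and 0 in WT and 4, 2 and 0 in Sgo1-/+ mice. At this depth its level could not check the labels.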

How the data were processed

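The authors aligned paired reads of 150 bases to mm10 in Strand NGS 2.1 and deposited an estimated count per Ensembl gene and library, often not whole. The submitters' processing notes also name BWA and edgeR. How reads with several matches were counted is not given in the sources used here. A further 6 columns of normalized values were not used.

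Counts were rounded and tested with edgeR 4.0.16 (TMM, default filter, no covariates), a procedure first tested on simulated data. P-values measure the spread between single mice. Members were matched to GENCODE M21 transcripts with blastn 2.17.0, on the same strand over at least 50% of the length. The limit of 3 counts covers counting error only. Replicate numbers did not pair the samples (correlations of -0.15, 0.01 and -0.21).

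Members, lists and rules were chosen with earlier results of these data known. Genes were named as the 10 highest members, all-or-none members, the 10 smallest p-values, those at the rank limit, their matched genes and Sgo1. All others (RP23-388P16.2, the further mitochondrial copies, copies of Rps6, Atp5g2, Psenen and Aph1a with those genes, Slc25a22, Cebpd and the neighbours on chromosome 4) were named after their values were seen.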

Additional observations from a re-analysis of the deposited data

How the results depend on the processing

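No member was called by the DESeq2 Wald test, edgeR's likelihood ratio test or limma, nor in edgeR with the size factors of DESeq2, without a filter, with a minimum of 10 counts, with sex in the model or with the replicate block (0 members called). The same held without the 6 most abundant members. Leaving out 1 library gave 0 to 1 called, the 1 being Gm13841 without Sgo1-/+ replicate 2, the only low library of its genotype, an omission that fixes the call. All-or-none members numbered 3 at a gap of 4-fold, 2 at 16-fold and 6 at 2-fold, the last chosen after seeing the data. Floors of 1 and 10 counts, other scalings and ranking by CPM gave 2 each, and leaving out 1 library gave 1 to 3, with 1 without WT replicate 1. Members whose groups do not overlap ranged from 32 to 55 of 200 (16% to 27.5%) with 1 library left out, beside 13% to 24% of all genes tested in the same designs, and both were highest without WT replicate 3.

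The share of counts was 2.95% in WT and 2.98% in Sgo1-/+ libraries without the most abundant member, and 0.669% and 0.660% without the 6 most abundant, added after seeing the data. A share outside the mitochondrial genome was not run, since the table lists 0 of its genes. Of 313 alternative log2 fold changes of 23 named members, 298 kept their direction and side of the threshold, 14 changed sign with 1 library left out, and that of Gm13841 passed the threshold by the omission named above. Leaving out 1 library gave -0.031 to 0.0674 for Gm13340, -0.0046 to 0.14 for Gm13341, -0.0149 to 0.24 for Gm13339, -0.11 to 0.18 for Gm11407, -0.12 to 0.16 for Gm11408, -0.0768 to 0.15 for Gm15487, -4.97 to 0.51 for Gm2574 and -0.0554 to 0.58 for Tigd5. The cause of these changes was not tested. Depth limits values near 3 counts, such as those of Gm13841 in 4 libraries.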
